A study of Mus musculus with 6 samples.

Results

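The transporters that move bile acids, phospholipid and organic anions across the 2 faces of the hepatocyte were read out of the liver RNA-Seq of *Mttp-IKO* mice and their controls. They are 10 genes, picked by gene name, of the 41388 genes in the deposited files, and all 10 passed the filter on low counts. Sinusoidal uptake is represented by Slc10a1, canalicular export by Abcb11, Abcb4, Abcb1a, Abcc2 and Atp8b1, and efflux over the basolateral membrane by Abcc3, Abcc4, Slc51b and Abcc6. The mice were C57BL/6 males aged 12 to 16 weeks that carried floxed *Mttp* alleles and a tamoxifen-inducible Cre recombinase (Cre ER). The Villin promoter, which acts in the intestinal epithelium, drove this Cre, and the paper describes the *Mttp* deletion as intestine-specific. Deletion in the liver was not tested here. *Mttp-IKO* mice received tamoxifen at 50 µg per g body weight daily for 5 days. The control littermates, named wild type (WT) in the labels, received vehicle, so the groups share the alleles but only the *Mttp-IKO* mice were exposed to tamoxifen. Methionine- and choline-deficient (MCD) food, a diet that injures the liver and causes steatohepatitis, was given to both groups for 3 weeks from 3 weeks after the injections, and livers were taken after a fast of 4 h by the labels and 4 to 6 h by the methods. Each group consisted of 3 RNA pools of 3 to 4 mice by the methods, and the labels speak of RNA from 12 livers, so a replicate is a pool and its spread is smaller than that between mice.

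Bile forms when hepatocytes pump bile salts, phosphatidylcholine and conjugated organic anions into the canaliculus, the narrow channel between neighbouring cells, and water follows. Bile salts that return from the intestine in portal blood are taken up again at the sinusoidal face by NTCP, the sodium-dependent cotransporter encoded by Slc10a1. When bile salts accumulate in the cell, pumps of the basolateral membrane can return them to blood, and the nuclear receptor FXR, encoded by Nr1h4, raises transcription of export genes and of the repressor SHP, encoded by Nr0b2.

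The pools held 25271585 to 36238734 reads on genes, and levels are given as CPM, the reads of a gene relative to all reads on genes in that pool. At this depth 0 reads allow 0.0828 to 0.119 CPM (3 reads of the total, counting error only). *Mttp-IKO* pool 3 stood apart from the rest. Small RNA genes took 0.289% of its reads and 1.92% to 3.51% of those of any other pool. Genes of 300 to 1000 nt took 1.84% of its mRNA reads and 3.98% to 4.28% elsewhere. Values of the members are therefore also given without this pool where they moved. Over all 17287 genes tested, 4.01% passed an adjusted p of 0.05 (edgeR quasi-likelihood test), 0.920% as higher and 3.09% as lower in *Mttp-IKO* pools. In bulk liver RNA, a change in the number of cells of a type and a change in the RNA per cell cannot be told apart.

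The uptake transporter Slc10a1 and the basolateral pump Abcc3 were higher in every *Mttp-IKO* pool than in every WT pool, by a fitted 3.75-fold and 1.55-fold, while the pools of the 5 canalicular genes overlapped between the groups. Not one of the 10 members passed an adjusted p of 0.05 over all genes tested (edgeR). Slc10a1 and Abcc3 were the 2 members with an unadjusted p under 0.05, a share to be read beside the 23.0% of all genes at that level. Pools that did not overlap in either direction were found in 2 of 10 members and in 31.0% of all genes, and as higher in *Mttp-IKO* pools in 2 of 10 members and 14.5% of all genes. The DESeq2 Wald test called the same 2 members, where it called 11.5% of all genes, and limma-voom called 0 members, with 2 at an unadjusted p under 0.05. The median log2 fold change was 0.036 over the 10 members and 0.0057 over all genes tested. With 3 pools against 3, an exact permutation test of a single gene cannot give a two-sided p under 0.1. Values below are CPM after edgeR's TMM scaling, which centres log ratios between libraries, as mean ± SD (n = 3 pools), and fold changes are *Mttp-IKO* over WT with a standard error (SE).

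**Figure D1:**
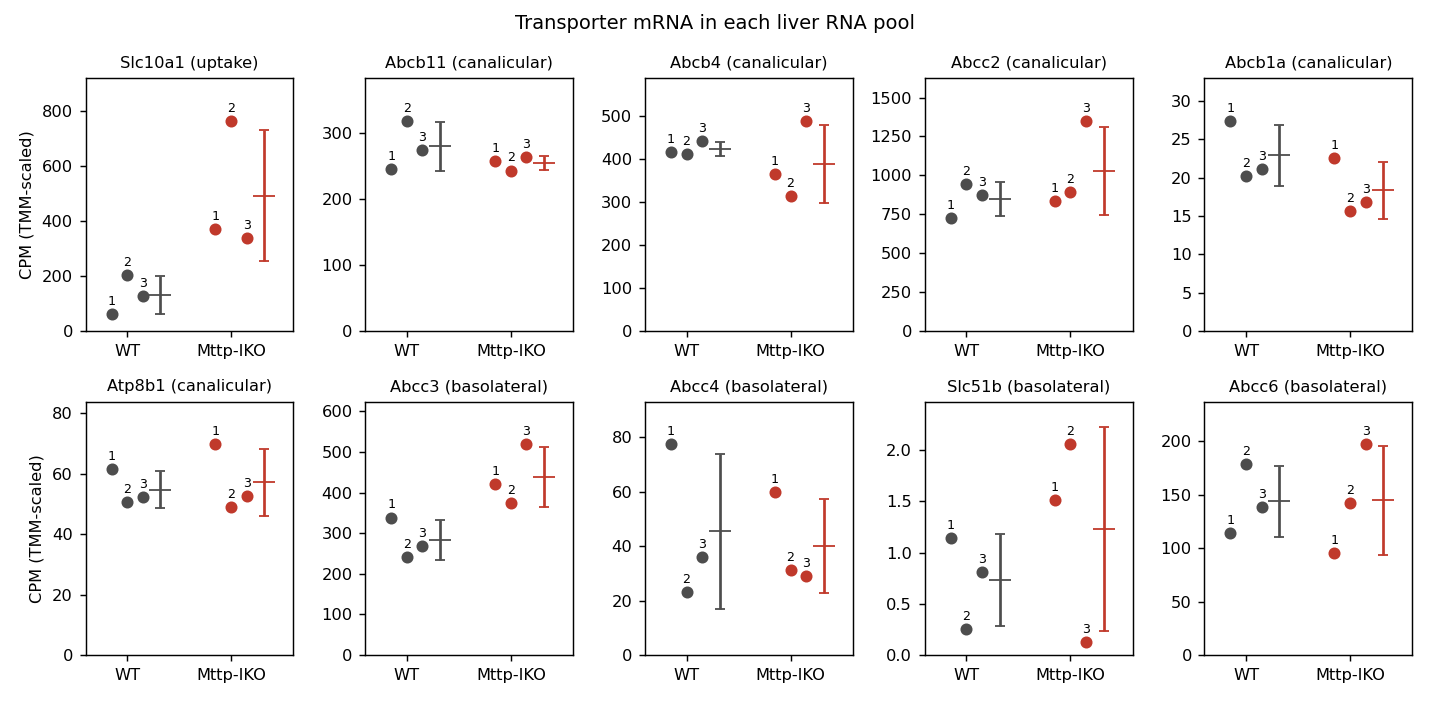
Level of each transporter mRNA (y axis, TMM-scaled CPM from 0) in the 3 WT pools (grey) and 3 *Mttp-IKO* pools (red), with the pool number above each point and the mean and SD beside the points. The *Mttp-IKO* pools lie above all WT pools for Slc10a1 (340.7 to 766 against 62.6 to 203 CPM) and Abcc3 (374 to 519 against 242 to 339 CPM), and overlap them in the other panels.

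Slc10a1 (ENSMUSG00000021135, chromosome 12, 80953185 to 80968079, minus strand, GRCm38) had the largest difference of the 10 members. Its level was 62.6, 203 and 129 CPM in WT pools 1 to 3 and 373, 766 and 340.7 CPM in *Mttp-IKO* pools 1 to 3. The lowest *Mttp-IKO* pool therefore lay above the highest WT pool. The means were 131 ± 70.3 CPM in WT pools and 493 ± 237 CPM in *Mttp-IKO* pools. The log2 fold change was 1.91 (SE 0.471, 95% interval 0.82 to 2.99), with an unadjusted p of 0.00358 and an adjusted p of 0.0652 (edgeR). It was also among the most variable members within a group, with a 3.24-fold range over the WT pools and a 2.25-fold range over the *Mttp-IKO* pools. WT pool 1 was the lowest and *Mttp-IKO* pool 2 the highest of the 6. Leaving out 1 pool at a time, the log2 fold change ran from 1.44 to 2.35 and the adjusted p from 0.0438 (without WT pool 2) to 0.227 (without WT pool 3). Without *Mttp-IKO* pool 3 the log2 fold change was 2.12 (adjusted p = 0.0587, edgeR). Its adjusted p fell below 0.05 when the filter on low counts was dropped (0.0257), when the trend of counts with gene length was removed (0.0446), with the replicate number as a block (0.0276) and with DESeq2 (0.000387). No gene in the files overlaps Slc10a1, and 0 of the 1700 windows of 50 nt of its longest protein-coding transcript recur in another gene's transcripts.

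Canalicular export showed no difference that passed the test, in any of its 5 genes. Abcb11 encodes BSEP, the bile salt export pump of the canalicular membrane (ENSMUSG00000027048, chromosome 2, 69238282 to 69342616, minus strand). It was at 246, 319 and 275 CPM in WT pools 1 to 3 and at 258, 243 and 264 CPM in *Mttp-IKO* pools 1 to 3. The *Mttp-IKO* pools lay within 1.08-fold of each other, near the lower end of the WT range. The means were 279.7 ± 36.7 and 255 ± 10.7 CPM, with a log2 fold change of -0.13 (SE 0.168, adjusted p = 0.672, edgeR). The 95% interval of -0.52 to 0.25 spans 0.697-fold to 1.19-fold, the narrowest interval of the 10 members. Abcb11 is overlapped by Gm13613 and Gm13614 on the other strand, which had at most 531 reads over all pools beside 51578 for Abcb11.

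The promoters of these members at opposite faces of the cell are shown because Slc10a1 and Abcb11 carry bile salts in and out of the hepatocyte. RefSeq windows on GRCm38.p6, from 250 bases before to 50 bases after a start site, were found for 7 of the 10 members (9 windows), and Abcc3, Abcc6 and Atp8b1 had no entry. Slc10a1 has a window at each of its annotated starts, at chr12:80968030-80968329, which matches the gene model counted in the files, and at chr12:80968656-80968955 (both minus strand). The Abcb11 window is chr2:69342567-69342866 (minus strand). Sequences are written along the gene from 5′ to 3′, and capitals mark matches to the motifs searched.
Slc10a1, counted start: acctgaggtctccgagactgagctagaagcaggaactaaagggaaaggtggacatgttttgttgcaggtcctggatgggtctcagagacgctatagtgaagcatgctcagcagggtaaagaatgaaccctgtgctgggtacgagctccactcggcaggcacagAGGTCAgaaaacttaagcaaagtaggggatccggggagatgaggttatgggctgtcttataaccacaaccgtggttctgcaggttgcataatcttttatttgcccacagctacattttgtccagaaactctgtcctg
Slc10a1, upstream start: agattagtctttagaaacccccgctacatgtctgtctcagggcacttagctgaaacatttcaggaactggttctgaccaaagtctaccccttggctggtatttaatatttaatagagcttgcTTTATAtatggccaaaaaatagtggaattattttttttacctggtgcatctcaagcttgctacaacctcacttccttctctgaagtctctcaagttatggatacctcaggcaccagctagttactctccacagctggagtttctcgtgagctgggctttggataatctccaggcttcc
Abcb11: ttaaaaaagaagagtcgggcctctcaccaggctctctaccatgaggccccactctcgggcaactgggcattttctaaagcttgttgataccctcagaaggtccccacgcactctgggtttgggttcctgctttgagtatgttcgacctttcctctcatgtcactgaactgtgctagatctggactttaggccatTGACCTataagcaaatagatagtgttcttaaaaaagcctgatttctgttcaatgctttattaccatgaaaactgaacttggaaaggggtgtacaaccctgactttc

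The capitals in the window at the counted Slc10a1 start are AGGTCA, the core motif that many nuclear receptors bind, beginning 87 bases before the start, and those in the Abcb11 window are the same motif on the opposite strand, beginning 56 bases before the start. In the upstream Slc10a1 window they mark TATAAA on the opposite strand. Both strands were searched for each motif. AGGTCA was in 4 of the 9 member windows (Slc10a1, Abcb11, Abcc2 and Slc51b) and in 16.3% of 32851 promoter windows. TGACNNNGC, the core of the antioxidant response element, was in 4 of the 9 (both Abcc4 windows, Abcc2 and Abcb1a) and in 12.4% of all. The Abcb1a window (chr5:8566841-8567140) lies upstream of the counted gene model, which begins at 8660077. One of the Abcc4 windows (chr14:118676882-118677181) lies inside the counted gene, away from its start at 118706219. TATAAA, the TATA box, was in 1 of the 9 and in 13.6% of all. GTCANTGAC, the core of an inverted repeat of the FXR type, was in 0 of the 9 and 0.387% of all. TGACNNNGC and GTCANTGAC share letters with TGACCT, the reverse complement of AGGTCA. These matches describe letters in the windows, and binding was not measured.

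Abcb4 encodes MDR2, which moves phosphatidylcholine into bile (ENSMUSG00000042476, chromosome 5, 8893721 to 8959225, plus strand). Its level was 416, 412 and 443 CPM in WT pools 1 to 3, the tightest group of any member (1.07-fold range), and 365, 314 and 490.1 CPM in *Mttp-IKO* pools 1 to 3. *Mttp-IKO* pools 1 and 2 lay below all WT pools and pool 3 above them all. The log2 fold change was -0.12 (SE 0.205, 95% interval -0.59 to 0.35, adjusted p = 0.764, edgeR), and without *Mttp-IKO* pool 3 it was -0.32 (adjusted p = 0.177, edgeR). Abcc2 encodes MRP2, which exports conjugated bilirubin and glutathione conjugates (ENSMUSG00000025194, chromosome 19, 43782192 to 43840740, plus strand). It was at 729, 943 and 873 CPM in WT pools 1 to 3 and 835, 895 and 1352 CPM in *Mttp-IKO* pools 1 to 3. Only *Mttp-IKO* pool 3 lay outside the WT range. The log2 fold change was 0.28 (SE 0.24, 95% interval -0.28 to 0.83, adjusted p = 0.527, edgeR) with all pools and 0.031 (adjusted p = 0.921, edgeR) without that pool.

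Abcb1a encodes the drug efflux pump P-glycoprotein (ENSMUSG00000040584, chromosome 5, 8660077 to 8748575, plus strand). It was at 27.4, 20.2 and 21.1 CPM in WT pools 1 to 3 and 22.6, 15.7 and 16.9 CPM in *Mttp-IKO* pools 1 to 3. *Mttp-IKO* pools 2 and 3 were below every WT pool and pool 1 was not. Its log2 fold change was -0.32 (SE 0.202, 95% interval -0.78 to 0.15, adjusted p = 0.381, edgeR). It was -0.19 (adjusted p = 0.741, edgeR) without WT pool 1 and -0.49 (adjusted p = 0.184) without *Mttp-IKO* pool 1. Of the 4948 windows of 50 nt in its longest protein-coding transcript, 18.6% recur in Abcb1b, Abcb4 or Gm42686. The shared part was 3.42% for Abcb4 and 1.79% for Abcb11. Only unique alignments were counted, and whether reads from the shared stretches were lost to Abcb1a was not tested. Its paralog Abcb1b had a log2 fold change of -0.55 (SE 0.231, adjusted p = 0.208, edgeR), with 6.13 to 6.99 CPM in WT pools and 3.29 to 5.29 CPM in *Mttp-IKO* pools, which did not overlap.

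Atp8b1 encodes FIC1, a flippase that keeps phosphatidylserine on the inner leaflet of the canalicular membrane (ENSMUSG00000039529, chromosome 18, 64528979 to 64661000, minus strand). Its level was 61.6, 50.5 and 52.2 CPM in WT pools 1 to 3 and 69.8, 49.1 and 52.6 CPM in *Mttp-IKO* pools 1 to 3. Pool 1 was the highest of its group in both genotypes, and the groups overlapped. For this flippase gene the log2 fold change was 0.062 (SE 0.18, 95% interval -0.35 to 0.48, adjusted p = 0.867, edgeR), and its sign turned when total counts were used as the scaling. Tmem30a, the subunit that Atp8b1 needs to leave the endoplasmic reticulum, had a log2 fold change of 0.22 (SE 0.158, adjusted p = 0.442, edgeR).

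At the basolateral membrane the 4 members did not move as a group. Abcc3 encodes MRP3, which exports glucuronides and bile salts to blood (ENSMUSG00000020865, chromosome 11, 94343295 to 94392997, minus strand). It was at 339, 242 and 268 CPM in WT pools 1 to 3 and 421, 374 and 519 CPM in *Mttp-IKO* pools 1 to 3. All *Mttp-IKO* pools were above all WT pools, with the nearest pools at 374 and 339 CPM. The means were 283 ± 50.04 and 438 ± 74.1 CPM. The log2 fold change was 0.63 (SE 0.208, 95% interval 0.15 to 1.11), with an unadjusted p of 0.0162 and an adjusted p of 0.128 (edgeR). Without *Mttp-IKO* pool 3, the highest pool, the log2 fold change was 0.49 (adjusted p = 0.130, edgeR). With each pool left out in turn it ran from 0.49 to 0.76, and the adjusted p from 0.130 to 0.403 (edgeR). With total counts as the scaling it was 0.45 (adjusted p = 0.280, edgeR). The adjusted p of Abcc3 with DESeq2 was 0.0443.

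Abcc4 encodes MRP4, which exports bile salts together with glutathione (ENSMUSG00000032849, chromosome 14, 118482692 to 118706219, minus strand). It was at 77.4, 23.0 and 35.9 CPM in WT pools 1 to 3 and 60.1, 31.4 and 28.9 CPM in *Mttp-IKO* pools 1 to 3. The WT pools spanned a 3.37-fold range that held every *Mttp-IKO* pool. Between groups the log2 fold change was -0.18 (SE 0.454, 95% interval -1.22 to 0.87, adjusted p = 0.848, edgeR), and it was 0.43 (adjusted p = 0.639, edgeR) without WT pool 1 and 0.010 (adjusted p = 0.992, edgeR) without *Mttp-IKO* pool 3. WT pool 1 was the highest WT pool in Abcc4, Abcc3, Slc51b, Abcb1a and Atp8b1, and the lowest WT pool in Slc10a1, Abcb11, Abcc2 and Abcc6.

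Slc51b encodes OSTβ, the smaller subunit of a bile salt carrier that works only as a dimer with OSTα (ENSMUSG00000053862, chromosome 9, 65412753 to 65422773, minus strand). It was barely expressed, with 46, 9 and 26 reads in WT pools 1 to 3 (1.14, 0.25 and 0.812 CPM). *Mttp-IKO* pools 1 to 3 had 47, 60 and 3 reads (1.52, 2.06 and 0.126 CPM). *Mttp-IKO* pools 1 and 2 were above the WT pools and pool 3 was the lowest of all. The 3 reads of that pool have an exact Poisson 95% interval of 0.619 to 8.77 reads, which covers counting error only. The gene model has 488 nt, within the length range in which pool 3 had few reads, and the part of this in the difference was not tested. With all pools the log2 fold change was 0.76 (SE 0.826, 95% interval -1.15 to 2.66, adjusted p = 0.622, edgeR) and it was 1.27 (adjusted p = 0.210, edgeR) without *Mttp-IKO* pool 3. It was 0.19 (adjusted p = 0.928, edgeR) without *Mttp-IKO* pool 2, 0.33 (adjusted p = 0.869) without WT pool 2 and 1.23 (adjusted p = 0.617) without WT pool 1. Slc51b overlaps Rasl12 on the other strand (88 reads over all pools against 191 for Slc51b), and whether counting used the strand is not stated. Its partner Slc51a had 4 to 26 reads per pool, with a log2 fold change of -0.77 (SE 0.692, adjusted p = 0.541, edgeR).

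Abcc6 encodes MRP6, a protein of the basolateral membrane required for release of ATP and so for plasma pyrophosphate, and not known as a bile salt pump (ENSMUSG00000030834, chromosome 7, 45976380 to 46030302, minus strand). It was at 114, 179 and 139 CPM in WT pools 1 to 3 and 95.2, 142 and 197 CPM in *Mttp-IKO* pools 1 to 3. The WT pools lay within the range of the *Mttp-IKO* pools, with means of 144 ± 33.0 and 145 ± 51.1 CPM. Its log2 fold change was 0.0092 (SE 0.287, 95% interval -0.65 to 0.67, adjusted p = 0.989, edgeR), and it was -0.28 (adjusted p = 0.504, edgeR) without *Mttp-IKO* pool 3. *Mttp-IKO* pool 3 was the highest of the 6 pools in Abcb4, Abcc2, Abcc3 and Abcc6, and the lowest in Slc51b.

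**Figure D2:**
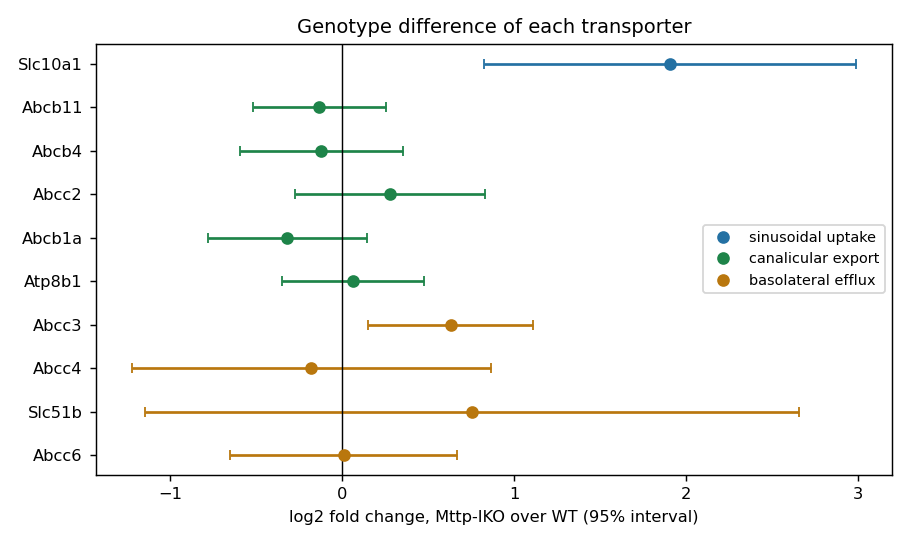
Log2 fold change of each transporter (x axis, *Mttp-IKO* over WT, points) with its 95% interval from the edgeR fit (bars), coloured by membrane role. The intervals of Slc10a1 (0.82 to 2.99) and Abcc3 (0.15 to 1.11) lie above 0, those of the other 8 members cross 0, and no member passed an adjusted p of 0.05.

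Ratios of transporters within a pool do not depend on how libraries are scaled to each other. Single genes of uptake, export and efflux were therefore also set against one another as reads per kilobase of gene model. These 7 ratios are given as values with no test. The ratio of Slc10a1 to Abcb11 was 0.784, 1.96 and 1.44 in WT pools 1 to 3 and 4.44, 9.69 and 3.97 in *Mttp-IKO* pools 1 to 3. On the log2 scale its mean was 0.38 ± 0.673 in WT pools and 2.47 ± 0.701 in *Mttp-IKO* pools (SD, n = 3), a difference of 2.09, and the groups did not overlap. The ratio of Slc10a1 to Abcb11 mRNA was thus higher in every *Mttp-IKO* pool. It compares a single uptake gene with a single canalicular gene. Their fitted log2 fold changes were 1.91 (Slc10a1, adjusted p = 0.0652, edgeR) and -0.13 (Abcb11, adjusted p = 0.672).

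The ratio of Abcc3 to Abcb11 was 1.24, 0.685 and 0.882 in WT pools 1 to 3 and 1.47, 1.39 and 1.78 in *Mttp-IKO* pools 1 to 3, again without overlap (log2 difference 0.76). The ratio of Abcc2 to Abcb11 was 1.78 to 1.92 in WT pools and 1.95 to 3.09 in *Mttp-IKO* pools (log2 difference 0.38), and the nearest pools, WT pool 3 and *Mttp-IKO* pool 1, almost touched. Without *Mttp-IKO* pool 3 this difference was 0.19. The ratios of Abcb4 to Abcb11 (log2 difference -0.019) and of Abcc4 to Abcb11 (0.050) overlapped, and both differences turned sign with single pools left out. Slc10a1 to Abcc3 (log2 difference 1.33) also overlapped, since the ratio was 2.86 in WT pool 2 and 2.23 in *Mttp-IKO* pool 3, and its difference was 0.74 without WT pool 1 and 0.86 without *Mttp-IKO* pool 2. For Abcc3 to Abcc2 the log2 difference was 0.38 and WT pool 1 (0.695) exceeded *Mttp-IKO* pools 2 and 3 (0.625 and 0.575). That difference was 0.19 without WT pool 2 and 0.62 without WT pool 1.

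**Figure D3:**
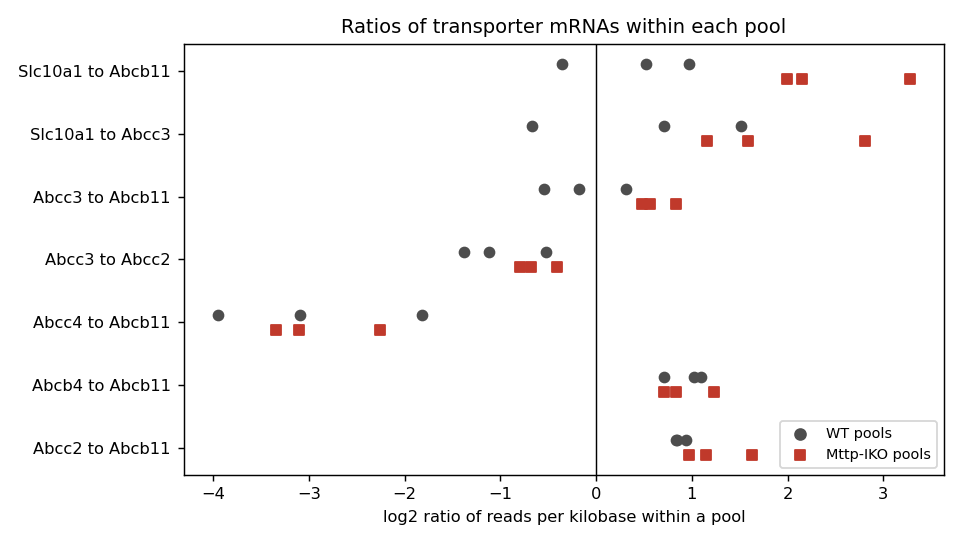
Log2 ratio of reads per kilobase between pairs of transporters (x axis) in each WT pool (grey circles) and each *Mttp-IKO* pool (red squares). For Slc10a1 to Abcb11 the *Mttp-IKO* pools run from 1.99 to 3.28 and the WT pools from -0.35 to 0.97, while for Abcb4 to Abcb11 and Abcc4 to Abcb11 the groups overlap.

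The order of the members by level, as TMM-scaled CPM per kilobase of gene model (RPKM), differed between groups at the top. In WT pools Abcb4 (104 ± 4.10 RPKM), Abcc2 (99.4 ± 12.8), Slc10a1 (78.5 ± 42.0), Abcb11 (54.4 ± 7.13) and Abcc3 (49.6 ± 8.78) overlapped as neighbours. Abcc6 (26.4 ± 6.05 RPKM) lay below all of these and above the rest. Atp8b1 (8.50 ± 0.932 RPKM), Abcc4 (7.93 ± 4.97) and Abcb1a (4.18 ± 0.721) overlapped as neighbours, and Slc51b (1.504 ± 0.923) was the lowest. In *Mttp-IKO* pools Slc10a1 was first (295 ± 142 RPKM), and its lowest pool (203.5) was above the highest of the next gene, Abcc2 (120 ± 33.1, highest pool 158). Abcc2, Abcb4 (95.6 ± 22.3 RPKM) and Abcc3 (76.9 ± 13.01) overlapped as neighbours, and Abcb11 (49.5 ± 2.07) was below all Abcc3 pools. From Abcc6 (26.5 ± 9.37 RPKM) to Slc51b (2.53 ± 2.04) the order was that of the WT pools, and there Atp8b1 overlapped Abcc4, and Abcb1a overlapped Slc51b.

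Other genes of bile transport were counted from lists of the same fit. Among 15 further membrane transporters, 0 passed the threshold as higher, 2 as lower and 13 did not pass, with a median log2 fold change of 0.22 against 0.0057 over all genes tested. Over all genes, 0.920% passed as higher and 3.09% as lower. At an unadjusted p under 0.05 (edgeR), 3 of the 15 were higher and 4 lower. Abcc1, which encodes the basolateral pump MRP1, fell, with 18.6 to 34.6 CPM in WT pools and 10.8 to 13.05 CPM in the pools of *Mttp-IKO* mice (log2 change -1.22, SE 0.246, adjusted p = 0.0390, edgeR). Aqp8, which encodes a water channel of the hepatocyte, fell, with 18.4 to 28.2 CPM in WT pools and 9.67 to 12.8 CPM in the pools of *Mttp-IKO* mice (log2 change -0.98, SE 0.212, adjusted p = 0.0477, edgeR). Neither gene's pools overlapped between groups. Which cells of the liver gave the Abcc1 RNA was not tested. Abcg5, a subunit of the canalicular sterol exporter, had a log2 fold change of 1.01 (SE 0.259, adjusted p = 0.0718, edgeR). Its partner Abcg8 had 0.77 (SE 0.322, adjusted p = 0.206, edgeR), with pools that overlapped between groups. Abcc5 had -0.84 (SE 0.229, adjusted p = 0.0829, edgeR).

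Among 11 genes that anchor or deliver canalicular transporters, 0 passed the threshold and the median log2 fold change was -0.068. Beside 23.0% of all genes tested, 2 of the 11 had an unadjusted p under 0.05 (edgeR). Both of those, the scaffold gene Pdzk1 (-0.99, adjusted p = 0.0804, edgeR) and the membrane-cytoskeleton linker gene Ezr (-0.74, adjusted p = 0.144, edgeR), had lower values in all *Mttp-IKO* pools. Pools did not overlap, in either direction, for 31.0% of all genes. Among 10 transcriptional regulators of these transporters, 1 passed as higher, 0 as lower and 9 did not pass, with a median log2 fold change of 0.38. At an unadjusted p under 0.05 (edgeR), 4 of the 10 were higher and 0 lower. Nr0b2 rose, with 17.3 to 25.1 CPM in WT pools and 33.1 to 54.5 CPM in the pools of *Mttp-IKO* mice (log2 change 1.07, SE 0.225, adjusted p = 0.0435, edgeR). Nr1h4, the gene of FXR itself, was at 78.1 to 104 CPM in WT pools and 76.9 to 110.2 CPM in the pools of *Mttp-IKO* mice (log2 change -0.038, SE 0.198, adjusted p = 0.931, edgeR). Hnf4a (0.87, adjusted p = 0.0664, edgeR), which encodes a factor of hepatocyte identity, had higher values in all *Mttp-IKO* pools without passing. Across these lists 3 of 36 genes passed, beside 4.01% of all genes tested. At an unadjusted p under 0.05 (edgeR) were 13 of the 36, beside 23.0% of all genes. The lists were chosen with earlier results of these data known. With limma-voom, or without WT pool 1, WT pool 3, *Mttp-IKO* pool 1 or *Mttp-IKO* pool 2, 0 of the 36 passed.

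**Figure D4:**
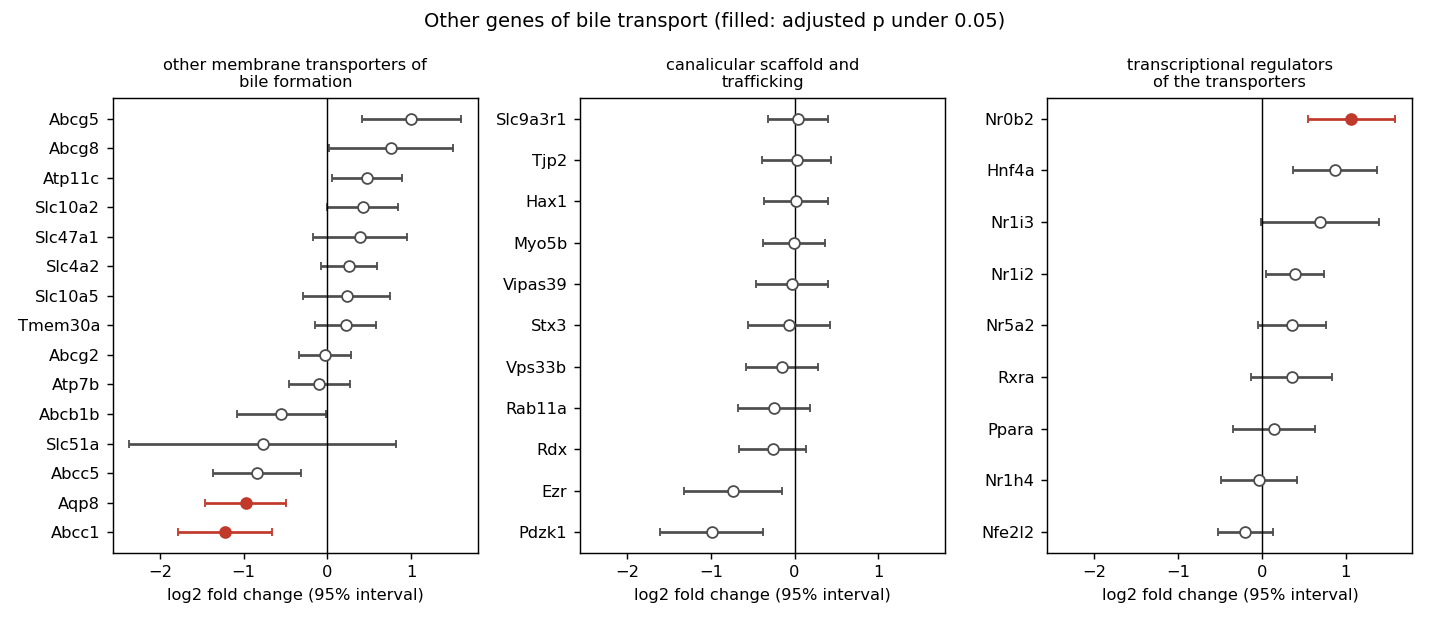
Log2 fold change (x axis, *Mttp-IKO* over WT) with 95% interval for 15 further membrane transporters, 11 scaffold and trafficking genes and 9 of 10 transcriptional regulators. Filled points mark the 3 genes past an adjusted p of 0.05, Abcc1 and Aqp8 as lower and Nr0b2 as higher.

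Cell type markers were read out of the same fit, and their link to the transporter differences was not tested. The summed level of 9 hepatocyte markers, to which Alb contributed most, was 65885 to 99777 CPM in WT pools and 126293 to 175946 CPM in *Mttp-IKO* pools, without overlap. Of these 9 genes, 8 had a positive log2 fold change (median 0.70), and 0 passed the threshold, with 4 at an unadjusted p under 0.05 (edgeR), Fgb at 0.73 (adjusted p = 0.112) and Apoa1 at 0.98 (adjusted p = 0.153) among them. Alb itself was at 0.95 (adjusted p = 0.157, edgeR). Ttr went the other way (-0.55, adjusted p = 0.290, edgeR), with lower values in all *Mttp-IKO* pools. Slc10a1 is a hepatocyte gene, and the part of hepatocyte RNA in its difference was not tested. Cholangiocytes, which line the bile ducts, were represented by 10 markers with a summed level of 66.9 to 82.4 CPM in WT pools and 62.6 to 91.4 CPM in *Mttp-IKO* pools. Of these, 8 were tested and 0 passed, with 2 at an unadjusted p under 0.05 (edgeR), Epcam (-1.22, adjusted p = 0.124) and Cftr (-1.24, adjusted p = 0.124), while the other 2 were under the filter.

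The 9 endothelial markers summed to 456 to 510.4 CPM in WT pools and 444 to 496 CPM in *Mttp-IKO* pools, and 0 passed the threshold, with 0 at an unadjusted p under 0.05 (edgeR). Tie1 (-0.36, adjusted p = 0.220, edgeR) and Lyve1 (-0.80, adjusted p = 0.265, edgeR) came nearest. The 8 stellate cell markers summed to 849 to 998 CPM in WT pools and 613 to 716 CPM in *Mttp-IKO* pools, without overlap, and 3 of them fell, Colec11 (-1.65, adjusted p = 0.0174, edgeR), Lrat (-1.71, adjusted p = 0.0181) and Pdgfrb (-1.20, adjusted p = 0.0378). The 8 macrophage markers overlapped in sum (516 to 854 against 373 to 769 CPM), and 1 of them, Timd4, rose (1.16, adjusted p = 0.0425, edgeR), beside Cd68 at -1.45 (adjusted p = 0.0507) and Adgre1 at -0.98 (adjusted p = 0.0895). Of the 9 enterocyte markers, 6 were under the filter, and the sum of 37.3 to 46.8 CPM in WT pools and 13.4 to 35.4 CPM in *Mttp-IKO* pools came mostly from Fabp2 (-0.79, adjusted p = 0.280, edgeR). Fabp2, Vil1, Lct and Cdh17 were among the markers with reads in every *Mttp-IKO* pool. In *Mttp-IKO* pools 1 to 3, Lct had 6, 8 and 7 reads and Cdh17 had 18, 1 and 2. Sis had 19, 2 and 0 reads in WT pools 1 to 3 and 0 in each *Mttp-IKO* pool.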

How the data were processed

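Total liver RNA of 6 pools, 3 per genotype, was depleted of ribosomal RNA and sequenced. The authors aligned reads with STAR 2.5.1a to the primary assembly of Ensembl release 76 (GRCm38) and deposited, for each pool, the count of uniquely aligned, unambiguous reads per gene from featureCounts 1.4.6-p5. The deposited CPM and RPKM values followed from these counts in all 6 files and were not used in tests. The table of all pools gave gene symbols for 40481 of 41388 genes, with 276 repeated lines that were dropped and the same counts. No pair of pools agreed within sampling noise. Nothing in the sources states whether mice were shared between pools.

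Genes were filtered by filterByExpr (minimum count 10, minimum total 15), scaled by TMM (factors 0.898 to 1.11) and compared with edgeR 4.0.16 (quasi-likelihood fit and F test by glmQLFit and glmQLFTest, R 4.3.3). P-values were adjusted by Benjamini-Hochberg over 17287 genes. Standard errors and 95% intervals were taken from the quasi-likelihood F statistic. The tests were checked on simulated data. The alternatives were other scalings, DESeq2 1.42.0, limma 3.58.1 (voom), robust dispersion, other filters, a block for the replicate number, counts freed of a loess trend on gene length fitted per library (span 0.3), an adjusted p of 0.1 and leaving out each pool. Windows of 50 nt were compared with GENCODE M21 transcripts (read length is not given in the sources used here). Members and lists were chosen with earlier results of these data known. All members are named, and of each other list the genes past the threshold (up to 6), up to 2 more by smallest p, and Slc51a, Abcb1b, Tmem30a, Nr1h4 and Nr0b2. Abcg8, Alb, Ttr, Vil1, Lct, Cdh17 and Sis were named after their values were seen. Some genes and motifs of the lists are counted or searched but not reported here. Tf, listed as a hepatocyte marker, matched no symbol. Figures were drawn with matplotlib 3.10.9.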

Additional observations from a re-analysis of the deposited data

How the results depend on the processing

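The count of members past the threshold, 0, became 1 without the filter, with the replicate block, with the gene length trend removed and at an adjusted p of 0.1, and 2 with DESeq2; it was 0 to 1 over the fits that each left out 1 pool. In each case of 1 the gene was Slc10a1, whose log2 fold change then was 1.89, 1.96 and 1.98 under the first 3 of these, and 1.92 with DESeq2, while Abcc3 was 0.65 with DESeq2. With pools left out in turn, Slc10a1 ran from 1.44 to 2.35 and Abcc3 from 0.49 to 0.76. Genes called over all genes tested numbered 694, and 1995 with DESeq2, 428 with limma-voom, 1658 at an adjusted p of 0.1 and 0 to 892 with pools left out: 24 without WT pool 1, 21 without WT pool 3, 55 without *Mttp-IKO* pool 1 and 0 without *Mttp-IKO* pool 2 (edgeR, 3221 at an unadjusted p under 0.05). Of the 36 genes in the other lists, 3 were called, 7 with DESeq2, 0 with limma-voom (14 at an unadjusted p under 0.05) and 0 to 3 with pools left out. With total counts as the scaling, the median of all genes moved by -0.18, and 112 of 1019 calls were higher, against 159 of 694. The sign turned for Atp8b1 with total counts (-0.12) and for Abcc6 with upper quartile factors (-0.021), total counts (-0.17), limma-voom (-0.023), no filter (-0.024), the replicate block (-0.030) and the length trend removed (-0.075). With pools left out, signs also turned for Abcb4 (-0.32 to 0.013), Atp8b1 (-0.11 to 0.16), Abcc4 (-0.59 to 0.43) and Abcc6 (-0.28 to 0.24), none of which was called, and those of Abcb11 (-0.24 to -0.050), Abcb1a (-0.49 to -0.19), Abcc2 (0.031 to 0.41) and Slc51b (0.19 to 1.27) kept their sign. With pools left out, the log2 differences of the ratios ran from 1.69 to 2.39 (Slc10a1 to Abcb11), 0.74 to 1.83 (Slc10a1 to Abcc3), 0.55 to 0.98 (Abcc3 to Abcb11), 0.19 to 0.62 (Abcc3 to Abcc2) and 0.19 to 0.52 (Abcc2 to Abcb11), and turned sign for Abcc4 to Abcb11 (-0.45 to 0.62) and Abcb4 to Abcb11 (-0.17 to 0.090). Removing the length trend turned no ratio's sign. The causes were not tested. Deviations of same-numbered pools correlated at 0.198, 0.205 and -0.000115, and those of differently numbered pools at -0.242 to 0.0546. The numbers were not taken as pairs in the main fit, and whether they mark a shared batch was not tested. The block left 592 genes called and changed the call of 1 member, Slc10a1 (adjusted p = 0.0276, edgeR). Slc51b had 3 to 60 reads per pool, with a 4.57-fold range over the WT pools and a 16.4-fold range over the *Mttp-IKO* pools. Its interval of -1.15 to 2.66 held both negative and positive log2 fold changes. The smallest difference in Slc51b that could be detected was not tested.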
